A study of Mus musculus with 4 samples.

Results

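Cytokine receptor, JAK and STAT genes were examined for cytosines whose methylation or hydroxymethylation differed between wild-type and Hdac6-deficient mouse LSK cells. The 35 genes were a fixed list of receptor chains, JAK kinases, STAT factors and negative regulators out of 21900 protein-coding genes. Every position that the authors listed inside these genes or within 2 kb of either end was taken, which gave 142 of 125070 listed sites. LSK cells are marrow cells sorted for lack of lineage markers, high Sca-1 and presence of c-Kit, a gate that contains the blood stem cells and their earliest progeny. The wild-type and the HDAC6 knockout groups each had 1 whole-genome bisulfite and 1 oxidative bisulfite library, so the 4 libraries formed 4 groups of 1 and no difference below has a replicate check. In both genotypes the labels number the bisulfite library 1 and the oxidative bisulfite library 2. Whether both came from the same animals is not stated. All groups share the tissue and the sorted cell type. Strain, age, sex, any pooling of animals and the deleted part of Hdac6 are not stated in the sources used here.

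Most cytokine receptors of classes I and II have no kinase of their own. Ligand binding brings receptor-bound JAK kinases together, which phosphorylate the receptor tails and then STAT proteins, and these enter the nucleus as transcription factors. Erythropoietin, IL-3, IL-6 and the interferons act on blood stem and progenitor cells through this route, whereas receptors of the IL-1 family signal through MyD88. 5-methylcytosine (5mC) stands at most CpGs of gene bodies, and the TET enzymes oxidise it to 5-hydroxymethylcytosine (5hmC). Bisulfite sequencing reads both marks as methylated, while a prior oxidation makes 5hmC read as unmethylated.

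The authors' deposited tables, 1 for 5mC and 1 for 5hmC, give for each listed position a wild-type level, a knockout level, a p-value and a q-value. All levels, p-values and q-values below are from the authors' deposited table for the named mark. Each genotype had 1 library of each kind, so none of these values has a replicate check. How many animals and which libraries stand behind a level is not stated. Every listed p was under 0.01 and every listed difference was at least 10 percentage points. Coverage is not stated and read counts were not worked out from the levels and p-values, so no interval is given for a level. Any level, also one between 0% and 100%, may rest on few reads. No site of the 35 genes had a q under 0.05, against 0.175% of all listed 5mC sites and 1.08% of all listed 5hmC sites. At all 52 5mC sites and at 77 of the 90 5hmC sites the q was 1, and q is stated below only where it was smaller. The smallest q, 0.0928, stood at a 5hmC site upstream of Tyk2. Methylation levels do not measure expression, so the sorted cell type could not be checked from its markers; Kit and Ly6a, the genes of c-Kit and Sca-1, both held listed sites in each table.

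Of the 35 genes, 24 held a listed 5mC site (68.6%) and 29 a listed 5hmC site (82.9%). The background among all protein-coding genes was 47.1% for 5mC and 53.7% for 5hmC. The 35 genes were longer than most, with a median length of 31146 bp against 17146 bp. Per 100 kb of gene and flank they held 2.48 5mC sites against 2.40 for all protein-coding genes, and 4.29 5hmC sites against 3.67. The larger share of genes with a site thus stood beside a greater gene length, and site density was close to the background for 5mC. There were 22 genes with sites for both marks. Stat2 and Ptpn6 held 5mC sites alone, and Il3ra, Il18r1, Ifnar1, Ifngr1, Ifngr2, Tyk2 and Stat4 held 5hmC sites alone. Epor, Il6st, Il13ra1 and Il15ra had no listed site in either table; whether their cytosines were covered is not known.

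The 52 5mC sites divided into 23 higher and 29 lower in the knockout, or 44.2% higher against 40.3% of all listed 5mC sites. Sites higher in the knockout occurred in 16 of the 35 genes and lower ones in 18 of 35, against 28.4% and 34.7% of all protein-coding genes. The 90 5hmC sites divided into 53 higher and 37 lower, or 58.9% higher against 64.4% of all listed 5hmC sites. Higher 5hmC sites occurred in 25 of the 35 genes and lower ones in 18 of 35, against 43.7% and 32.5% of all protein-coding genes. The direction of the whole gene set was therefore close to that of the tables in which it was found. The median 5mC level at the members' sites was 87.7% for wild type, and for the knockout 71.5%. For 5hmC these medians were 2.79% and 22.2%, and 69 of the 90 sites were at exactly 0% in one of the genotypes. At 42 of those sites wild type was at 0% and at 27 the knockout. The whole tables had medians of 84.3% (wild type) and 66.7% (knockout) for 5mC, and of 0% and 22.7% for 5hmC. There, 59166 of the 71864 listed 5hmC sites had a level of exactly 0% for one genotype. Wild type was at 0% at 37602 of them and the knockout at 21564. Levels of 0% were thus not particular to the 35 genes.

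**Figure D1:**
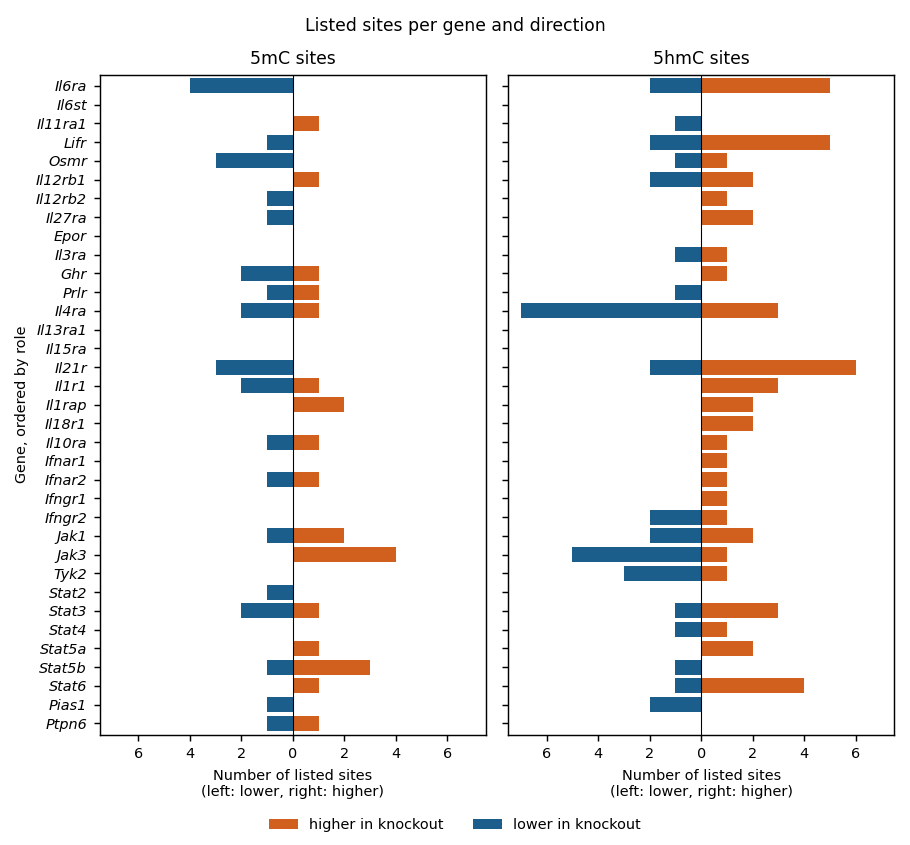
Number of listed 5mC sites (left panel) and 5hmC sites (right panel) per gene, with bars to the right for sites higher and bars to the left for sites lower in the Hdac6 knockout; genes are ordered by role. Il4ra had 7 lower 5hmC sites, Il21r had 6 higher ones, and the bars of Epor, Il6st, Il13ra1 and Il15ra are empty in both panels.

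None of the members' 142 sites lay in a core promoter, taken as the window from 250 bases before to 50 bases after an annotated start in RefSeq (GRCm38.p6). Such windows were on hand for 32 of the 35 genes, 44 windows in all, and held 720 distinct CpGs. Some genes reach upstream of their outermost start on hand, so further starts may lack a window. Stat5b reaches to 100859004, with its outermost start at 100850581, and Lifr begins at 7090610, with its first start at 7129572. Across all genes, 3.06% of windows held a listed site. The listed site closest to a member's own start was the 5hmC site of Il21r, 156 bp downstream of it. The next in distance was the 5hmC site 191 bp downstream of the last annotated start of Il18r1. Stat5b is shown as a CpG-dense promoter with its nearest listed sites 2335 and 2365 bp downstream, and Insl3 as the promoter nearest to the sites at the end of Jak3, the nearest of them 138 bp downstream of its start. The windows are chr7:125603179-125603478 on the plus strand for Il21r, chr1:40465756-40466055 on the plus strand for Il18r1, chr11:100850532-100850831 on the minus strand for Stat5b and chr8:71689002-71689301 on the plus strand for Insl3. They are printed 5′ to 3′ from RefSeq, GRCm38.p6. Capitals mark CpGs in Il21r, Stat5b and Insl3, and in Il18r1 the letters TTCNNNGAA, the palindromic motif that STAT dimers are known to bind, which reads the same on both strands.
Il21r: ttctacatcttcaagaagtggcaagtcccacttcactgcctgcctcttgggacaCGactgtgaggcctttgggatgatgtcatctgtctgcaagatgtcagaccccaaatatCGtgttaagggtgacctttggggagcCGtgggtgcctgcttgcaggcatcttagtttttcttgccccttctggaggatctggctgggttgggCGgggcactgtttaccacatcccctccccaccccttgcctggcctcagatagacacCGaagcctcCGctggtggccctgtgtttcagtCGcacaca
Il18r1: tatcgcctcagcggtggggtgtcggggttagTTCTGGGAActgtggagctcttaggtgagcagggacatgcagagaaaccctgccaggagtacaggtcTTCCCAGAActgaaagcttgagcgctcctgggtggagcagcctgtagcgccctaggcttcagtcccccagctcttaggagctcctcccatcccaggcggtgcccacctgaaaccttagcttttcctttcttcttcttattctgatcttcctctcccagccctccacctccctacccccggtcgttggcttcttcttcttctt
Stat5b: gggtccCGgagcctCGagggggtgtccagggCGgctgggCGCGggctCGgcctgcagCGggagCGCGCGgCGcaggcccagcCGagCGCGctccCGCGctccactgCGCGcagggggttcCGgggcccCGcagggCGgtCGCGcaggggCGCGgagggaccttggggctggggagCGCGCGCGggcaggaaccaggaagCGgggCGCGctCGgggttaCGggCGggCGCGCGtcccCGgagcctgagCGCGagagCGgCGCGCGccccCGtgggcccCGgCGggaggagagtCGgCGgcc
Insl3: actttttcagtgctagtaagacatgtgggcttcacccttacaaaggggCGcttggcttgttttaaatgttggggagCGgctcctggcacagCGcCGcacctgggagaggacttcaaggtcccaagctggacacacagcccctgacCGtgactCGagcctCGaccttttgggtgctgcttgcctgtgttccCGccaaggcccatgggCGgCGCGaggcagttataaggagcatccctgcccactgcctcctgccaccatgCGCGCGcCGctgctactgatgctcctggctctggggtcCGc
The Stat5b window held 50 CpGs, the Insl3 window 16 and the Il21r window 7. TTCNNNGAA occurred in 5 of the members' 44 windows (11.4%), against 8.30% of all 32851 windows. The Il18r1 window held it at 2 places, and Il12rb2, Prlr, Ifnar1 and Ifnar2 each had a window with it. A match describes these letters and is not evidence of binding.

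Away from the core promoters, 3 5mC sites lay within 2 kb of a member's own start, in Ghr, Prlr and Stat5b, and all of them were higher in the knockout. Of the 45 5mC sites farther from a start, 18 were higher and 27 lower. For 5hmC, the 14 sites within 2 kb of an own start were divided evenly, with 7 higher and 7 lower, and the 69 farther sites were higher in 41 cases. Over all listed sites, 40.3% of 5mC and 64.4% of 5hmC sites were higher. The share near the starts of all genes is not given here. Whether the direction of the 3 5mC sites is particular to these genes was not tested. For Il10ra, Il12rb1 and Il27ra no start was on hand, and starts of other members may be missing, as stated above. The gene table holds no exons, and whether a site is exonic, intronic or in a UTR is therefore not stated. Inside another annotated gene lay 11 5mC and 13 5hmC sites. Besides the overlaps named below, 5mC sites lay in long non-coding genes for Ghr (3361131, Gm41254) and Il1rap (26722757, Gm20319). The same held for Ifnar2 (91378305, Gm36587) and Stat6 (127652217, Gm30989). At the edge of the 2 kb window, the farthest site taken was 1910 bp beyond Stat6 (5hmC of 16.1% and 0% in the authors' deposited table, wild type before knockout). The nearest site left out was 2023 bp beyond Tyk2 (40.7% and 4.76% 5hmC in the authors' deposited table).

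Receptors of the gp130 and IL-12 families were higher in 5mC at 2 of 12 sites, against 40.3% of all listed 5mC sites, and lower at the other 10. In 5hmC they were higher at 16 of 24 sites (66.7%), close to the 64.4% of all listed 5hmC sites. Il6ra, the ligand-binding chain of the IL-6 receptor (chr3:89869324-89913196, minus strand), held 4 5mC sites, and the knockout was lower at all. In the authors' deposited table its 5mC at position 89906737 was 100% in wild type against 28.6% without HDAC6 (p = 0.000624), and at position 89902533 it was 100% and 63.6%. At positions 89896925 and 89878326 the authors' deposited table gave 97.4% and 97.3% 5mC in wild type against 72.7% and 70.4% in the knockout. Wild type was thus nearly fully methylated at all 4 positions, and the knockout was below it at each.

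Il6ra also held 7 5hmC sites, 5 higher and 2 lower. All 4 of its 5mC positions were listed for 5hmC too, where wild type was at 0% in the authors' deposited table. The knockout 5hmC levels there were 57.1% at position 89906737, 33.3% at 89902533, 22.7% at 89896925 and 22.2% at 89878326 in the authors' deposited table. No other member had so many positions in both tables. Its remaining 5hmC sites were at 0% and 30% at position 89909064, at 34.6% and 3.57% at position 89890098, and at 36.4% and 4% at position 89913952, 756 bp upstream of the start, (wild type, then knockout, the authors' deposited table). Position 89878326 and position 89890098 also lie in Gm46811, a long non-coding gene inside Il6ra.

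Il6st, the gene of the shared signalling chain gp130, had no listed site, and Il11ra1, the IL-11 receptor chain, had 1 in each table. On chromosome 4, Il11ra1 was at 75.6% and 98.2% 5mC at position 41769872, which lies in the neighbouring chemokine gene Ccl27a, and at 12.5% and 0% 5hmC at position 41767763 in the authors' deposited table. Lifr, the receptor chain for leukaemia inhibitory factor on chromosome 15, was at 100% and 76.9% 5mC at position 7189788 in the authors' deposited table. Its 5hmC was higher at 5 of 7 sites. The authors' deposited table gave for Lifr 5hmC 0% and 28.6% at position 7132818 (p = 0.000283, q = 0.650), 0% and 31.8% at 7134475, 3.39% and 21.7% at 7141487, and 0% and 21.4% at 7152119. Position 7132782, 36 bp from 7132818, was higher as well, at 0% and 19.05% in the authors' deposited table. Within 96 bp of position 7141487, which was higher, a pair of Lifr sites went the other way, from 14.3% and 16.3% in wild type to 0% in the authors' deposited table.

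Osmr, the oncostatin M receptor chain on chromosome 15, resembled Il6ra in 5mC, with all 3 sites lower. In the authors' deposited table its 5mC was 100% and 58.3% at position 6832953, 97.1% and 69.2% at 6861889, and 97.1% and 72.7% at 6869963. Its 5hmC sites stood at other positions and were divided, with 0% and 42.9% at 6857610 and 27.0% and 0% at 6858995 in the authors' deposited table.

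Il12rb1, the chain shared by the IL-12 and IL-23 receptors, was higher in 5mC, as was Il11ra1, against the other genes of this family. At chromosome 8 position 70809589 its 5mC was 29.4% in wild type against 77.3%, and its 5hmC was 52.9% and 0% (p = 0.000344, q = 0.719) in the authors' deposited tables. A further 5hmC site 1684 bp beyond the gene, at position 70825226, was also lower, at 19.7% and 0% (q = 0.846, the authors' deposited table). Positions 70807133 and 70808921 were higher in 5hmC, from 0% to 42.9% and from 0% to 31.8% in the authors' deposited table. Il12rb2, the IL-12-specific chain that signals, had its single site in both tables at chromosome 6 position 67296363, with 100% and 50% 5mC and 0% and 40% 5hmC in the authors' deposited tables. Il27ra, which pairs with gp130 to bind IL-27, had 83.8% and 48.7% 5mC and 0% and 30.8% 5hmC (p = 0.000278, q = 0.642) at chromosome 8 position 84043284 in the authors' deposited tables. Its other 5hmC site, at 84043211, was at 0% and 16.2% in the authors' deposited table; both lie just outside Il27ra, inside the relaxin gene Rln3.

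**Figure D2:**
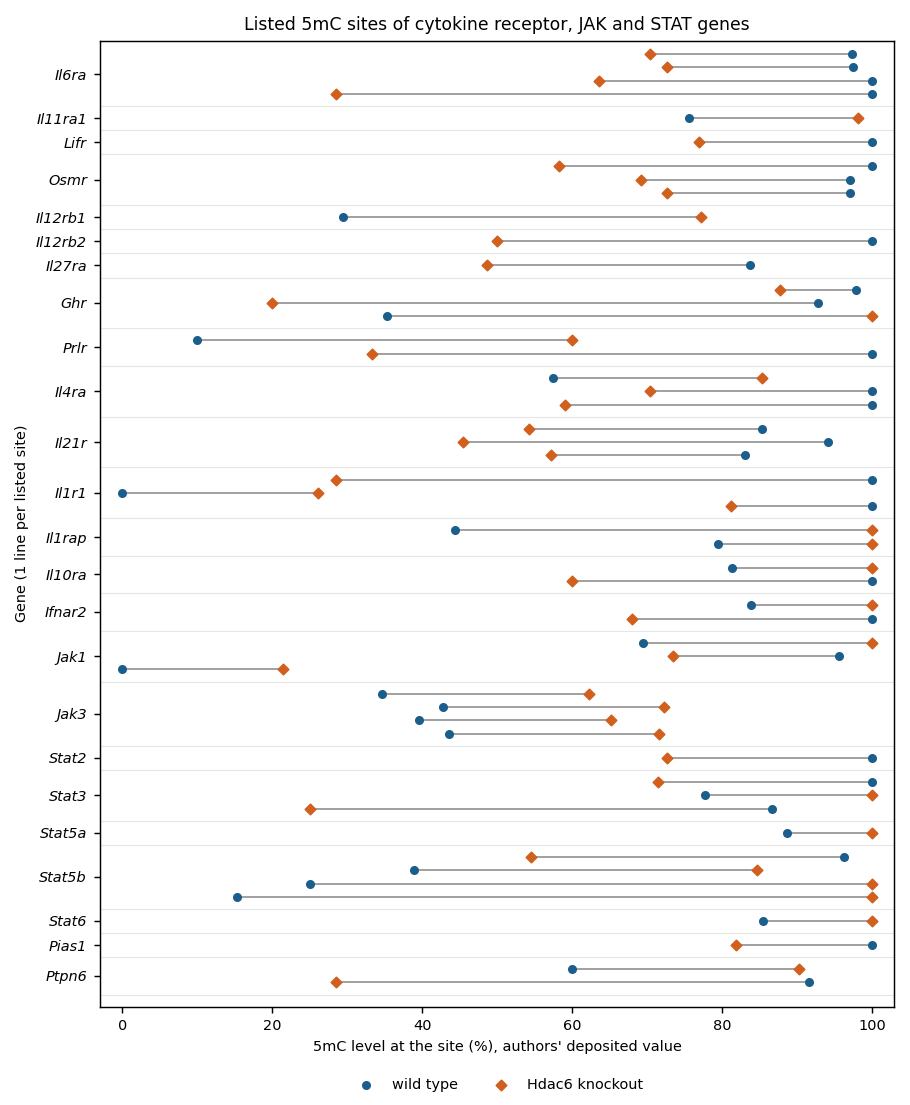
5mC level in percent at each of the 52 listed sites, 1 line per site grouped by gene, with circles for wild type and diamonds for the Hdac6 knockout. All 4 sites of Il6ra and all 3 of Osmr and Il21r run from a high wild-type level to a lower knockout level, while all 4 of Jak3 run the other way.

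The other class I receptors were higher in 5mC at 3 of 11 sites and in 5hmC at 11 of 22, beside 40.3% and 64.4% of all listed sites. Epor, the erythropoietin receptor gene of red cell progenitors, had no listed site, nor had Il13ra1, a chain for IL-13, or Il15ra, the chain that presents IL-15. Il3ra, the IL-3-specific chain on chromosome 14, had 2 5hmC sites close to its start, with 0% and 20.3% at position 14346768 (p = 0.000314, q = 0.686) and 28.9% and 3.23% at 14347434 in the authors' deposited table. They lie 273 and 939 bp downstream of the start and went in opposite directions.

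Ghr and Prlr, the growth hormone and prolactin receptor genes on chromosome 15, each combined a higher 5mC site upstream of a start with lower ones inside the gene. Ghr was at 35.3% and 100% 5mC at position 3584931, 1579 bp upstream (p = 0.000150), at 92.9% and 20% at 3539939, and at 97.9% and 87.8% at 3361131 in the authors' deposited table. The p at the upstream Ghr site was the smallest of all 52 5mC sites. Prlr was at 10% and 60% 5mC at position 10175989, 1249 bp upstream, and at 100% and 33.3% at 10196047 in the authors' deposited table. In 5hmC, Ghr was at 2.94% and 35% at position 3433405 and Prlr at 33.3% and 0% at 10210401 in the authors' deposited table.

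Il4ra, the chain shared by the receptors of IL-4 and IL-13 (chr7:125552271-125579474, plus strand), had the most listed 5hmC sites, 10, of which 7 were lower. The sites with the smallest p in the authors' deposited table were 18.2% and 0% at position 125557694 (q = 0.824), 0% and 40% at 125568993 (q = 0.833), 25% and 0% at 125573588 (q = 0.979), and 31.9% and 3.12% at 125564795. Of the remaining 6, those lower went from between 15.4% and 28.6% to 0%, and those higher, at positions 125579979 and 125580020 just past the gene, went from 0% and 3.70% to 27.8% and 35.3% in the authors' deposited table. Il4ra thus ran against the 64.4% of all listed 5hmC sites that were higher. Its 5mC was 57.4% and 85.4% at position 125554516, 100% and 70.4% at 125562732, and 100% and 59.1% at 125562755 (p = 0.000451) in the authors' deposited table.

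Il21r, the IL-21 receptor gene farther along the same chromosome (chr7:125603252-125634397, plus strand), had the reverse balance in 5hmC, with 6 of 8 sites higher. Of all listed 5hmC sites, 64.4% were higher. In 5mC, where Il4ra was lower at 2 of 3 sites, Il21r was lower at all 3. At position 125626228 its 5hmC was 0% and 31.8%, with p = 3.57e-05 (q = 0.183, the authors' deposited table), and its 5mC was 83.0% and 57.1%. At position 125623446 its 5hmC was 2.44% and 37.1% (p = 0.000143, q = 0.445) and its 5mC 85.4% and 54.3% in the authors' deposited tables. The third 5mC site, at 125625755 between them, was at 94.1% and 45.5% in the authors' deposited table. These sites lie more than 20 kb into the gene. Among the other 5hmC sites of Il21r, position 125616906 was at 0% and 50% and position 125632679 at 20.4% and 1.79%; the remaining 4 included the highest 5hmC level of any member, 77.8% in the knockout against 15.4% in wild type at position 125633661, the site near the start at 0% and 12.5%, position 125613934 at 0% and 55.6%, and position 125634037 at 38.9% and 0% in the authors' deposited table.

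Receptors of the IL-1 family were higher in 5hmC at all 7 sites, and wild type was at 0% at each of them. Of all 71864 listed 5hmC sites, 64.4% were higher, and wild type was at 0% at 37602. Among the members' 90 sites, 53 were higher, and wild type was at 0% at 42. A wild-type level of 0% was thus not particular to this family. Il1r1, the signalling receptor for IL-1 on chromosome 1, was at 0% and 71.4% 5hmC at position 40255643, where its 5mC was 100% and 28.6% in the authors' deposited tables. Its other 5hmC sites were at 0% and 31.3% at 40226560 and at 0% and 26.3% at 40268876, and its other 5mC sites at 0% and 26.1% at 40269288 and at 100% and 81.3% at 40303448 in the authors' deposited tables. Il1rap, the accessory chain of several IL-1 family receptors on chromosome 16, was at 0% and 44.4% 5hmC at 26582675 and at 0% and 57.1% at 26597249 in the authors' deposited table. Unlike in Il1r1, both 5mC sites of Il1rap were higher, at 44.4% and 100% at 26712615 and at 79.5% and 100% at 26722757 in the authors' deposited table. Il18r1, the IL-18-binding chain, was at 0% and 27.8% 5hmC at position 40466197 and at 0% and 24% at 40470691 of chromosome 1 in the authors' deposited table.

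**Figure D3:**
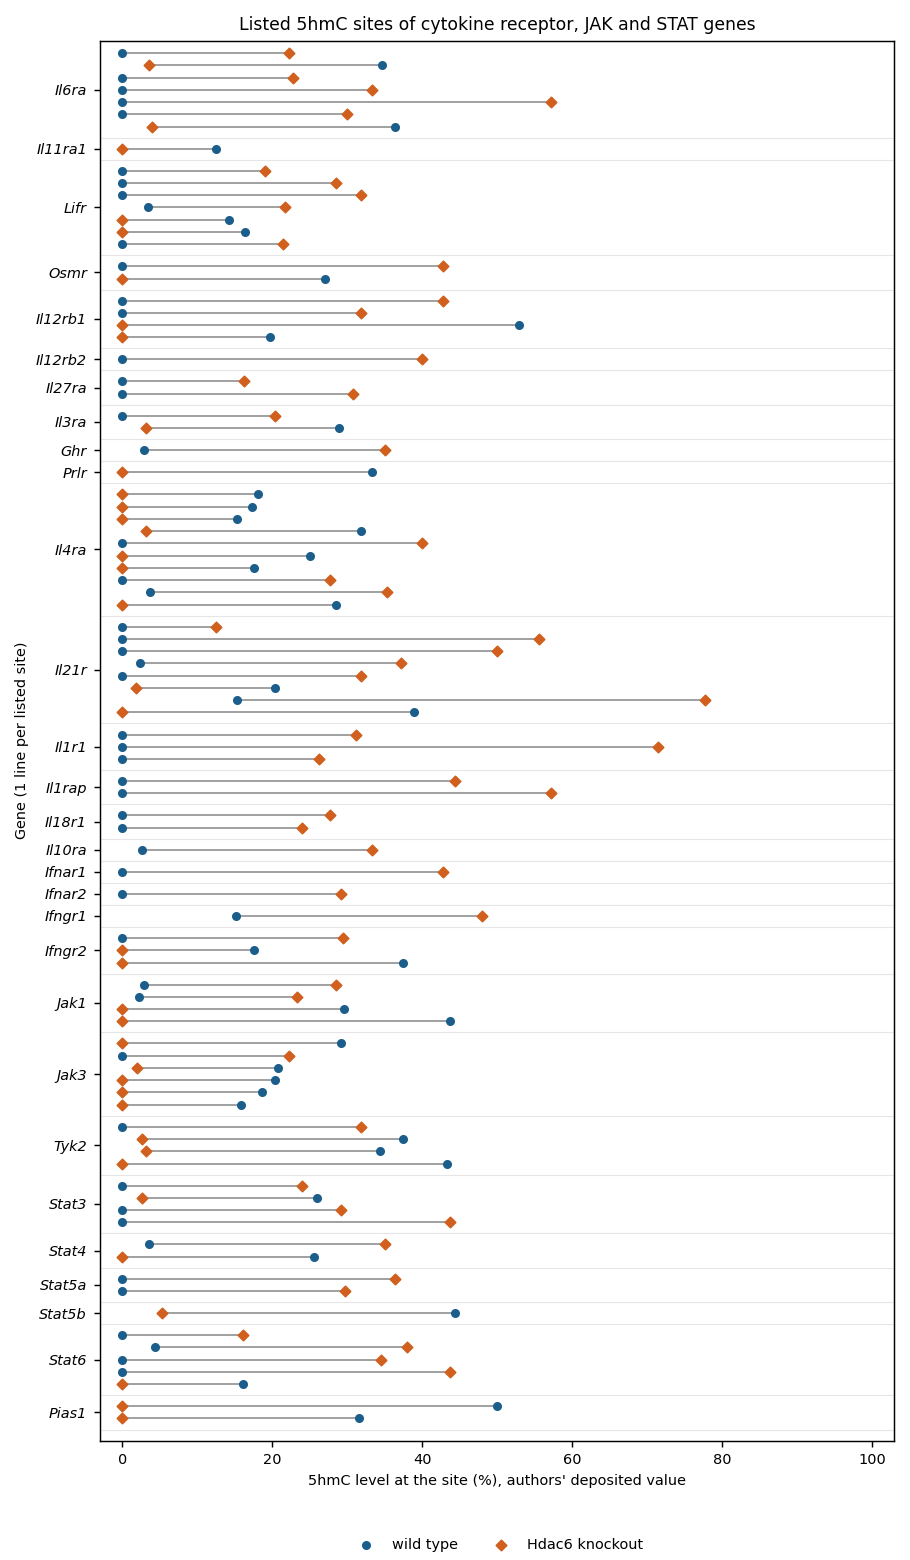
5hmC level in percent at each of the 90 listed sites, 1 line per site grouped by gene, with circles for wild type and diamonds for the Hdac6 knockout. Wild type sits at 0% at 42 sites and the knockout at 27. No level lies above 77.8%. All 7 sites of the IL-1 family receptors are among the 42.

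Class II receptors, those for IL-10 and the interferons, each held 5hmC sites, of which 5 of 7 (71.4%) were higher, near the 64.4% of all listed sites. Of these 5 genes, Il10ra and Ifnar2 held 5mC sites; over all protein-coding genes 47.1% held a 5mC and 53.7% a 5hmC site. Il10ra, the IL-10-binding chain on chromosome 9, was at 81.4% and 100% 5mC at position 45254016 and at 100% and 60% at 45265272, with 5hmC of 2.63% and 33.3% at 45267860 in the authors' deposited tables. The type I interferon receptor genes lie close together on chromosome 16. Ifnar1 had 1 5hmC site, at 0% and 42.9% at position 91499224 of the authors' deposited table. Ifnar2 was at 0% and 29.2% 5hmC at position 91382486, and at 83.9% and 100% 5mC at 91378305 and 100% and 68% at 91380386 in the authors' deposited tables.

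For interferon-gamma, the ligand-binding chain gene Ifngr1 was at 15.2% and 48% 5hmC at chromosome 10 position 19599973 of the authors' deposited table. Ifngr2, the second chain on chromosome 16, had 0% and 29.4% 5hmC at position 91553400 (p = 0.000980), 17.7% and 0% at 91553525, and 37.5% and 0% at 91561256 in the authors' deposited table. The first pair lies 125 bp apart and differs in direction.

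JAK kinase genes were higher in 5mC at 6 of 7 sites and in 5hmC at 4 of 14, beside 40.3% and 64.4% of all listed sites; the difference from other groups was not tested. Of these, 4 of the higher 5mC sites, neighbours at one end of the gene, and 5 of the lower 5hmC sites were at Jak3, which pairs with the common gamma chain in lymphoid receptors (chr8:71676383-71690577, plus strand). Its 4 5mC sites were all higher, at 34.7% and 62.3% at position 71689390, 42.9% and 72.3% at 71690214, 39.6% and 65.2% at 71690279, and 43.6% and 71.6% at 71690282 in the authors' deposited table. The levels were intermediate in both genotypes, and no site was at 0% or 100%. Without Jak3, the share of higher 5mC sites over all members was 39.6%, near the 40.3% of all listed sites.

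The 5hmC sites at the same end of Jak3 were lower. In the authors' deposited table they were at 20.5% and 0% at position 71690282 (p = 0.000373, q = 0.744), 18.6% and 0% at 71690290 (p = 0.000921) and 15.9% and 0% at 71690309. One more, at 71690227, was at 20.8% and 1.96%, so 4 5hmC sites within 82 bp shared a direction in the authors' deposited table. The remaining Jak3 5hmC sites, at 71684461 and 71678434, were at 0% and 22.2% and at 29.2% and 0% in the authors' deposited table. All 4 5mC sites and these 4 clustered 5hmC sites also lie inside Insl3 (chr8:71689252-71690577), an insulin-like hormone gene of Leydig cells that is annotated within the end of Jak3. The sites cannot be assigned to one gene rather than the other.

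Jak1, used by most class I and II receptors (chromosome 4), had 5mC of 69.4% and 100% at position 101155351, 95.7% and 73.5% at 101199319, and 0% and 21.4% at 101254135 in the authors' deposited table. Its 5hmC was 2.94% and 28.6% at 101160832, 2.22% and 23.3% at 101199319, 29.6% and 0% at 101200409, and 43.8% and 0% at 101255581 in the authors' deposited table. Jak1 was thus evenly divided in 5hmC, including a pair of sites about 1 kb apart that went opposite ways. Tyk2, the kinase of the interferon and IL-12 receptors (chr9:21104068-21131393, minus strand), had no 5mC site and 3 of 4 5hmC sites lower. At position 21132638, 1363 bp upstream of its start, 5hmC was 43.3% in wild type against 0% (p = 1.44e-05, q = 0.0928, the authors' deposited table). A site 12 bp away, at 21132626, was at 34.4% and 3.23%, and the site just beyond the 2 kb window given above was lower as well in the authors' deposited table. Inside Tyk2, position 21121690 was at 37.5% and 2.70% and position 21116700 at 0% and 31.8% in the authors' deposited table.

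**Figure D4:**
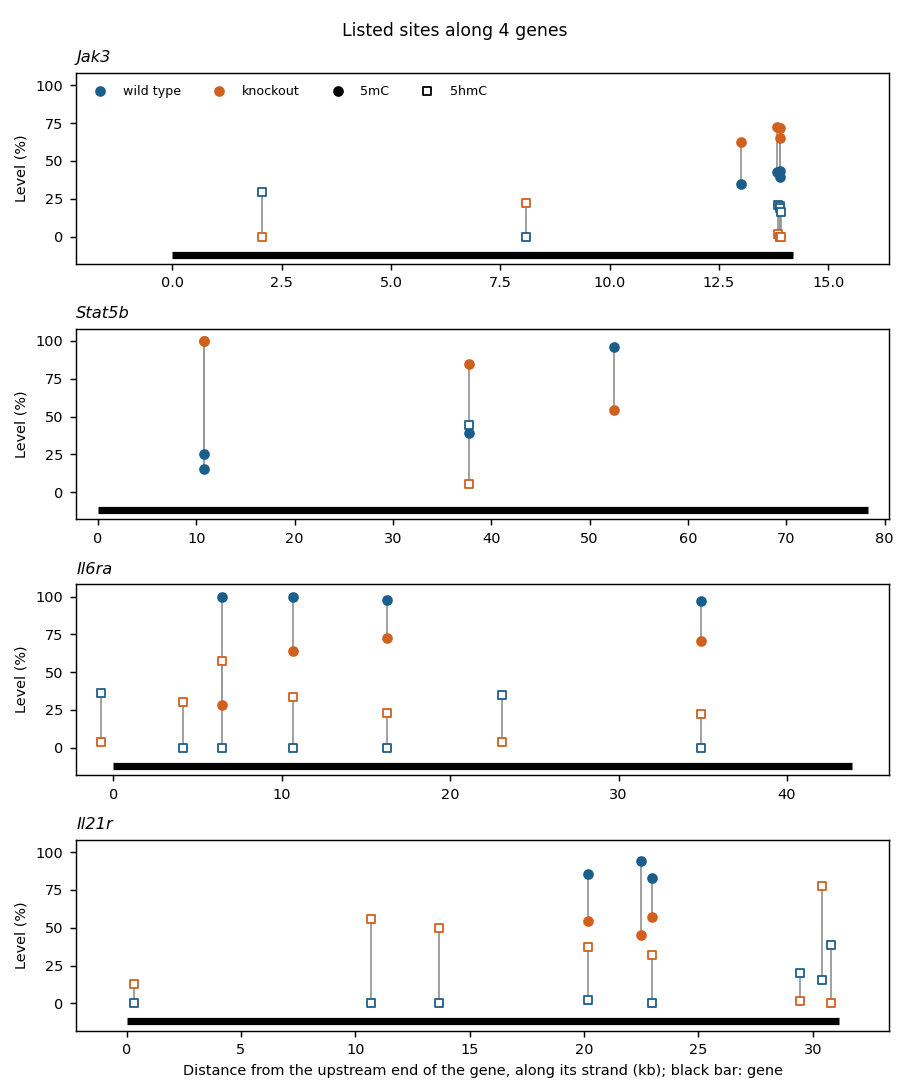
5mC (filled circles) and 5hmC (open squares) levels in percent at the listed sites of Jak3, Stat5b, Il6ra and Il21r, blue for wild type and orange for the Hdac6 knockout, against distance in kb from the upstream end of the gene; the black bar is the gene. In Jak3 the 5mC sites and most 5hmC sites crowd at the downstream end with opposite directions, whereas in Il6ra 4 positions along the gene are lower in 5mC and higher in 5hmC. The upstream end of Stat5b lies upstream of the starts used in the text.

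STAT genes were higher in 5mC at 6 of 10 sites, beside 40.3% of all listed 5mC sites. They were higher in 5hmC at 10 of 14 (71.4%), near the 64.4% of all listed 5hmC sites. Of these 14 sites, 5 were counted for Stat6 but lie beyond it, inside Nab2, and 4 of the 5 were higher. Stat5b, which with Stat5a carries signals of erythropoietin, thrombopoietin and IL-3 (chr11:100780731-100859004, minus strand), held the largest 5mC gains among the 35 genes. At positions 100848246 and 100848216, 30 bp apart, 5mC was 15.4% and 25% in wild type against 100% at both in the knockout, with p = 0.000221 at the former in the authors' deposited table. Both lie just past 2 kb downstream of the CpG-dense start printed above. At position 100821211, 1359 bp downstream of another start, 5mC was 38.9% and 84.6% and 5hmC 44.4% and 5.26%, and at 100806521 5mC was 96.3% and 54.6% in the authors' deposited tables. Of these 4 5mC sites, the 3 nearer to the starts were higher. Stat5a, on the same chromosome, was at 88.7% and 100% 5mC at 100875051, at 0% and 36.4% 5hmC at 100865973 and at 0% and 29.7% at 100872226 (p = 0.000409, q = 0.774) in the authors' deposited tables.

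Stat3, the main factor of IL-6 family signals (chr11:100886806-100939594, minus strand), was lower in 5mC at 2 of 3 sites and higher in 5hmC at 3 of 4. At position 100936578 its 5mC was 86.7% and 25% (p = 0.000965) and its 5hmC 0% and 43.8%, and at 100893107 these were 100% and 71.4% and 0% and 29.2% in the authors' deposited tables. The remaining Stat3 sites were 77.8% and 100% 5mC at 100930910, 0% and 24% 5hmC at 100891689, and 25.9% and 2.63% 5hmC at 100892199 in the authors' deposited tables. At both positions of Stat3 listed for both marks, 5mC was thus lower and 5hmC higher. The same directions stood at 71.5% of all 12608 positions listed for both marks.

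Stat2, a factor of type I interferon signalling, had 1 5mC site at 100% and 72.7% (chromosome 10 position 128277770) in the authors' deposited table. Stat4, activated by IL-12, had 5hmC of 3.57% and 35% at position 51987862, 714 bp downstream of a start, and 25.6% and 0% at 52076651 of chromosome 1 in the authors' deposited table. Stat6, the factor of IL-4 and IL-13 signalling on chromosome 10, was at 85.4% and 100% 5mC at 127652217 in the authors' deposited table. Its 5hmC sites all lay beyond the gene, inside Nab2, the gene of a corepressor of EGR factors. There the authors' deposited table gave 0% and 34.5% at 127661713, 4.35% and 37.9% at 127661702, 0% and 43.8% at 127661835 and 0% and 16.1% at 127661478. These 4 sites within 357 bp were all higher, and the fifth, at the window's edge, was lower.

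Both negative regulators held sites. Pias1, a SUMO ligase that restrains STAT factors, was on chromosome 9 at 100% and 81.8% 5mC at 62882588, at 50% and 0% 5hmC at 62934825 and at 31.6% and 0% at 62938487 in the authors' deposited tables. Ptpn6 encodes SHP-1, the phosphatase that switches off the erythropoietin receptor and other JAK-coupled receptors. On chromosome 6 it was at 60% and 90.3% 5mC at 124724695 and at 91.7% and 28.6% at 124726801 in the authors' deposited table, so its sites were divided.

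Of all members' positions, 15 in 10 genes were listed in both tables, and at each of them 5mC and 5hmC differed in opposite directions. At 12 of the 15, 5mC was lower and 5hmC higher in the knockout, against 71.5% of the 12608 positions that the tables share. At the other 3, in Il12rb1, Jak3 and Stat5b, 5mC was higher and 5hmC lower, against 28.4%. Over all shared positions the directions were alike at only 14. Because a 5hmC level estimated from both kinds of library shares data with the 5mC level, opposite directions at one position are not independent observations; the authors' way of deriving each level is not stated in the sources used here. The sum of both levels at the members' 15 positions had a median of 97.3% for wild type and of 90% for the knockout. It differed between genotypes by less than 10 points at 12, with a median absolute difference of 4.71 points. Over all 12608 shared positions the median sums were 93.3% and 92.5%, and the median absolute difference was 3.83 points. There the sums differed by less than 10 points at 10544 positions. For Il1r1 at position 40255643 the sum was 100% in both genotypes, with the same p of 0.00339 in both of the authors' deposited tables. Among the members' 15 positions the widest difference of the sums was at Stat3 position 100936578, 86.7% against 68.8%. The sum exceeded 100% at 350 of all shared positions in wild type and at 750 in the knockout, with 1 of the latter in the members, at Stat3, so it is not strictly a total of one measurement.

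**Figure D5:**
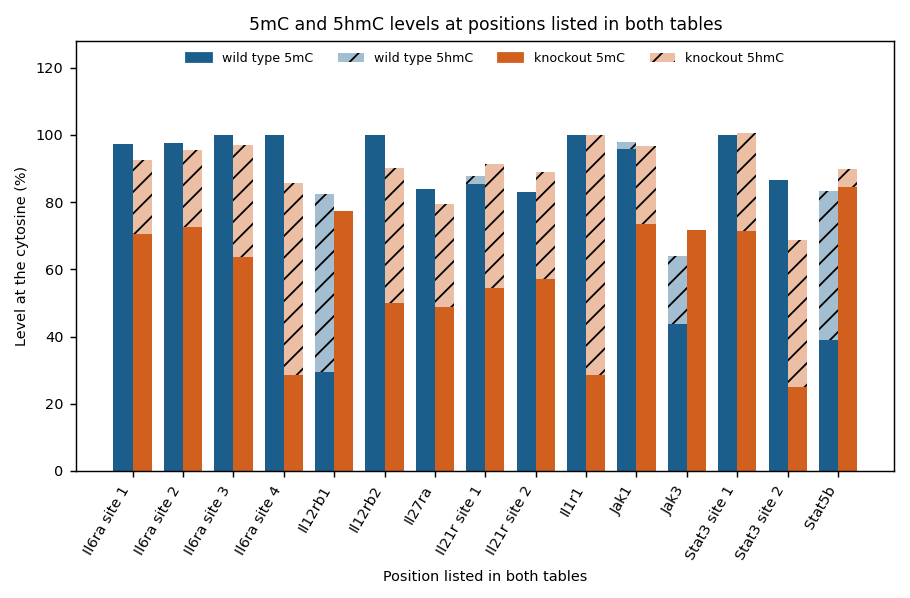
5mC (solid) and 5hmC (hatched, stacked on top) levels in percent at the 15 positions of the members listed in both tables, blue for wild type and orange for the Hdac6 knockout, with sites of one gene numbered by position. Solid parts are shorter in the knockout at 12 positions, while the stacked heights differ by less than 10 points at 12.

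Sites of one table that lay within 500 bp of each other in the same gene formed 4 runs in 5mC and 11 in 5hmC. All 4 5mC runs had a common direction, higher in Jak3 and Stat5b and lower in Il4ra and Il21r. Of the 11 5hmC runs, 4 were higher, among them those of Stat6 and Il27ra, 4 were lower, among them those of Jak3 and Tyk2, and 3 were mixed, in Lifr, Il21r and Ifngr2. Neighbouring cytosines can share reads, so the sites of a run are not separate observations. The share of runs with a common direction over all listed sites is not given here.

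Outside the 35 genes, a list of 77 further receptors, ligands and regulators of these pathways had 39 genes with 5mC sites (50.6%) and 50 with 5hmC sites (64.9%), beside 47.1% and 53.7% of all protein-coding genes. Of its 5mC sites 45.1% of 71 were higher, and of its 5hmC sites 55.03% of 149, beside the 40.3% and 64.4% of all listed sites. Higher 5mC sites occurred in 24 of these 77 genes and lower ones in 23 of 77, beside 28.4% and 34.7% of all protein-coding genes. For 5hmC the numbers were 41 of 77 and 35 of 77, beside 43.7% and 32.5%. The smallest q-values of this list in the authors' deposited table were 0.0666 at Socs3, a feedback inhibitor of IL-6 signals (23.4% and 0% 5hmC at chromosome 11 position 117968038), 0.246 at Socs7, 0.256 at Pias2 and 0.267 at Ctf1, the gene of the gp130 ligand cardiotrophin 1.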

How the data were processed

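Per the labels' protocols, libraries were made from sonicated DNA of LSK cells with a lambda spike-in and methylated adapters, then bisulfite-converted and sequenced. For the aligner, caller, test and coverage filter, nothing is given in the sources used here. Deposited by the authors were 5mC and 5hmC levels as fractions (printed here as percent) with their own p-values and q-values and the signed difference, knockout minus wild type, as another measure. It equalled the difference of the deposited levels within 0.0001. The submitters' processing notes name GRCm39, but all 412 5mC and 778 5hmC positions inside RefSeq promoter windows of GRCm38.p6 fell on the C of a CG; with windows shifted by 1000 bp, 3.57% and 3.43% did. Positions are therefore given as GRCm38.

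Sites were assigned to gene bodies of the RefSeq table plus 2000 bp at either end (Python 3.11.15, pandas 2.3.3); the assignment was tested on simulated data. All 35 symbols matched. With 1 library per group no test was run. Named were all members, with every site where a table had up to 4 for the gene and otherwise the 4 with the smallest p, the rest by range. Sites singled out beyond that were chosen after their values were seen. The members and gene lists were chosen with earlier results of these data known. The kinase and STAT entries of the further pathway list are not reported here.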

Additional observations from a re-analysis of the deposited data

How the results depend on the processing

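No result of this report rests on a test, so only counts and shares could move. The members held 52 5mC and 90 5hmC sites in 24 and 29 genes, with 15 positions in both tables. At an authors' p under 0.001 these numbers were 6, 16, 6, 10 and 0, and at an authors' q under 0.05 all of them were 0, so no share could be given there. With differences of at least 30 points, 25 5mC sites, 44 5hmC sites and 9 shared positions were left. Of these 5hmC sites 70.5% were higher, above the 95% Wilson interval of the main share of 58.9% (48.6 to 68.5%). That interval covers counting error only and takes sites as independent, although neighbouring sites can share reads. The share of all listed 5hmC sites under this setting is not given here. Over all listed 5hmC sites the median difference was 31.25 points for higher sites and -26.19 points for lower ones. Without sites at exactly 0% or 100%, 24 5mC and 21 5hmC sites in 14 and 15 genes and 3 shared positions were left. Of 68 values under the alternative settings, 49 stayed within 1.5 times the main count or inside the interval and 19 did not. Taking the gene body alone, 10 kb flanks, or leaving out sites in or near another gene or any 1 member kept every count and share within those bounds. No listed cytosines were 1 bp apart in these genes. Depth is not stated and was not worked out, so what it limits is not given per site. No paired analysis was possible because each genotype has 1 library of each kind and the result comes from no test. No replicate could be left out.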
